A study of Mus musculus with 8 samples.

Results

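The chromosome 12 block is the interval from 17.3 to 30.1 Mb of mouse chromosome 12 (build mm9), which holds Adi1, Sox11 and Id2. The array carries 96 probes in this interval, each a DNA strand of 60 bases made to capture 1 transcript. Its members are the 70 of them that were well above background on at least 3 of the 4 arrays of a strain, out of 27982 probes tested on the whole array, and they carry 46 gene names. The block was chosen by its strain differences: the values that selected it were those of BTBR against B6 on these same 8 arrays. Every BTBR against B6 value of a member is therefore a description, and where a member is said to have been called (an adjusted p under 0.05 in the fit over all probes), that only restates what it was chosen for.

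Hippocampal RNA of 4 BTBR and 4 B6 mice was labelled with a single dye and hybridised, with 1 mouse on each array. BTBR mice were BTBR T+ Itpr3tf/J and B6 mice were C57BL/6J, the inbred strain used as the control. All 8 animals were males aged 5 months, bred in the same vivarium from stock of the Jackson Laboratory, and none had received a drug. The labels name C57BL/6J as the strain background of the BTBR samples as well, while their titles, sources and genotypes place them in BTBR. The whole hippocampus was taken, so fewer cells of a type and less RNA per cell cannot be told apart in any value below.

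Inbred strains differ in haplotype along a chromosome, and neighbouring genes are inherited together. A probe made from the sequence of one strain can also bind less well to a transcript of another strain that carries a base change under it, so a probe reads both the amount of a transcript and its sequence. The genes of the block include developmental transcription factors, enzymes of methionine, polyamine and nucleotide metabolism, and regulators of adhesion and membrane traffic. Id2 and Sox11 are known in the hippocampus for their part in the growth and maturation of neurons.

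Between 56.8% and 71.9% of the probes were well above background on each array, median raw intensities lay between 358 and 461, and no probe was saturated. The labelled tissue was checked against its markers, and all 7 hippocampal markers used were detected. Their summed level on the log2 scale ranged from 16.49 to 16.99 in B6, whereas it was 16.12 and 15.94 in BTBR mice 1 and 2 and 17.06 and 16.59 in BTBR mice 3 and 4. The summed level of the 8 thalamus markers was 16.57 in BTBR mouse 1 and at most 14.23 in the other 7 animals. The choroid plexus list (8 of 8 detected) reached 16.28 and 16.20 in BTBR mice 1 and 2, above the range of 14.06 to 15.54 in B6, and the oligodendrocyte list (6 of 6) read 18.84 and 19.06 there against 18.43 to 18.58 in B6 and 18.43 and 18.16 in BTBR mice 3 and 4. Lists of 2 cell types did not overlap between strains. The astrocyte list (6 of 6 detected) was at 17.05 to 17.17 in B6 and 16.65 to 16.97 in BTBR, and the microglia list (6 of 6) at 14.86 to 14.94 in B6 and 15.04 to 15.32 in BTBR. The higher microglia sum came from 1 gene, Cx3cr1 (difference 1.41), while the other 5 microglia markers had differences from -0.40 to -0.01. The blood list (3 of 4 detected) stood at 17.60 in BTBR mouse 3 and at 15.23 to 16.25 in the other animals. The pituitary list (4 of 4 detected) was at 11.23 and 11.31 in B6 mice 1 and 2, 13.16 and 14.16 in B6 mice 3 and 4, and 12.61 to 14.65 in BTBR. The part of these differences in any value of a strain difference, inside or outside the block, was not tested.

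Across the block, 30 of the 70 members had an adjusted p under 0.05 in the limma fit, a linear model with a spread moderated over all probes, beside 7.61% of all 27982 probes. Of these members 15 were higher in BTBR, beside 3.31% of all probes, and 15 were lower, beside 4.3%. The 4 BTBR arrays did not overlap the 4 B6 arrays for 36 members (16 higher and 20 lower), beside 14.2% of all probes. Since these counts are what the block was chosen for, nothing is read from them. The median difference over the members was -0.03 on the log2 scale, and the median size of the difference regardless of sign was 0.29, beside 0.01 and 0.10 over all probes. In level and spread, which come from the same arrays that chose the block, the members lay close to the array as a whole. Their median level in B6 was 9.71 beside 10.08, their median SD was 0.10 in B6 and 0.14 in BTBR beside 0.11 and 0.14, and the median GC content of the probes, which the choice did not use, was 40.8% beside 41.7%.

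**Figure D1:**
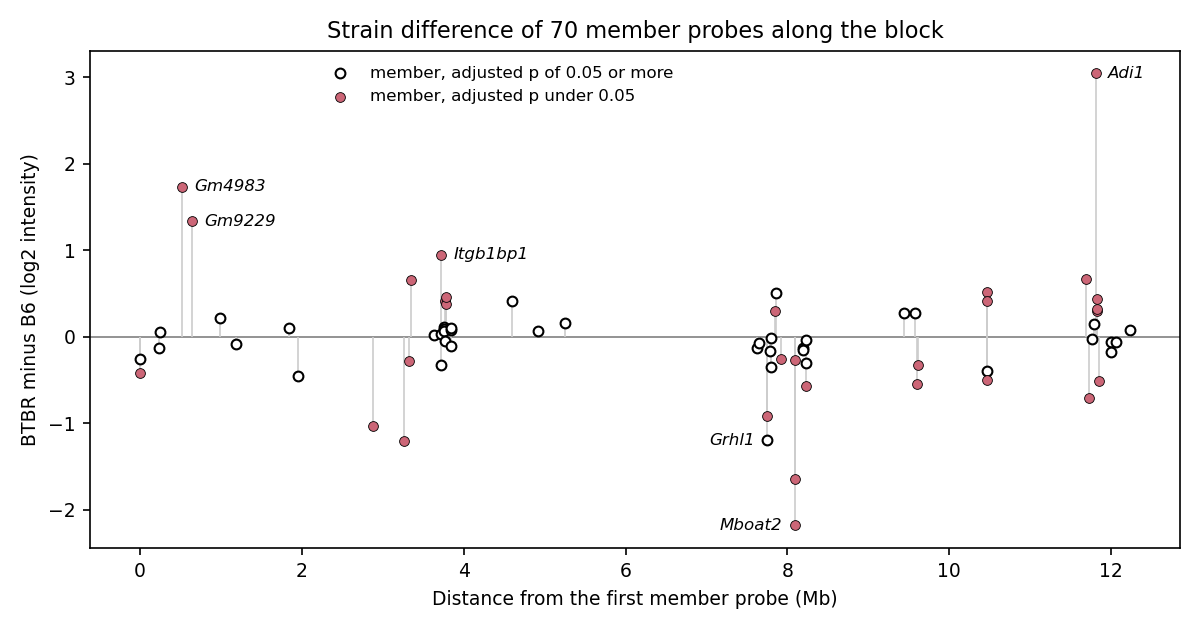
Difference between strains (BTBR minus B6, log2 intensity, vertical axis) for each of the 70 member probes against its distance in Mb from the first member (horizontal axis); filled points had an adjusted p under 0.05 and open points did not. Values run from -2.18 for a Mboat2 probe to 3.05 for Adi1.

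The plot of differences along the block shows members of both signs in each part of it. Where neighbouring members more than 1 Mb apart are separated, the members fall into 4 stretches, whose counts of calls stand beside 3.31% of all probes called higher and 4.3% called lower. The stretch from Odc1 to Gm9292, at 17.55 to 22.81 Mb, held 31 members, of which 7 were called higher and 4 lower, and 20 had a difference above 0. The next, at 25.18 to 25.78 Mb around Grhl1, Mboat2 and Id2, held 18 members with 1 called higher and 6 lower. Of these 18, which carry 12 gene names, 16 had a difference below 0. Over all 27982 probes, 14906 had a difference above 0 and 13076 below 0. The third, at 26.99 to 28.03 Mb from Rnf144a to Sox11, held 8 members with 2 called higher and 3 lower. The last, at 29.24 to 29.79 Mb around Adi1, held 13 members with 5 called higher and 2 lower. At most 5 neighbouring members in a row were called.

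At the borders, the nearest tested probe below the start was for Atp6v1c2, a subunit of the proton pump of acidic organelles, at chr12:17291566-17291625. Its BTBR minus B6 difference was 0.94. The first member, an Odc1 probe at chr12:17554799-17554858, had a difference of -0.41. The last member, for the transcript 4833405L11Rik at chr12:29790998-29791057, had 0.08, and the next tested probe above the end, for the neural zinc finger factor Myt1l at chr12:30469938-30469997, had -2.05. The interval thus does not end where the wide differences do. Of the 26 probes of the interval that are not members, 16 were well above background on no array. The 3 that reached 2 arrays of a strain had differences from -0.14 to 0.23, and the 8 members that reached 3 arrays at most had differences from -0.51 to 0.22.

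Among the members, 8 had no overlap between strains and a difference of at least 1 on the log2 scale, beside 1.46% of all probes. These were Adi1, both detected probes of Mboat2, 1 probe of Grhl1, and the transcripts Gm4983, Gm9229, BX515989 and ENSMUST00000110971.

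**Figure D2:**
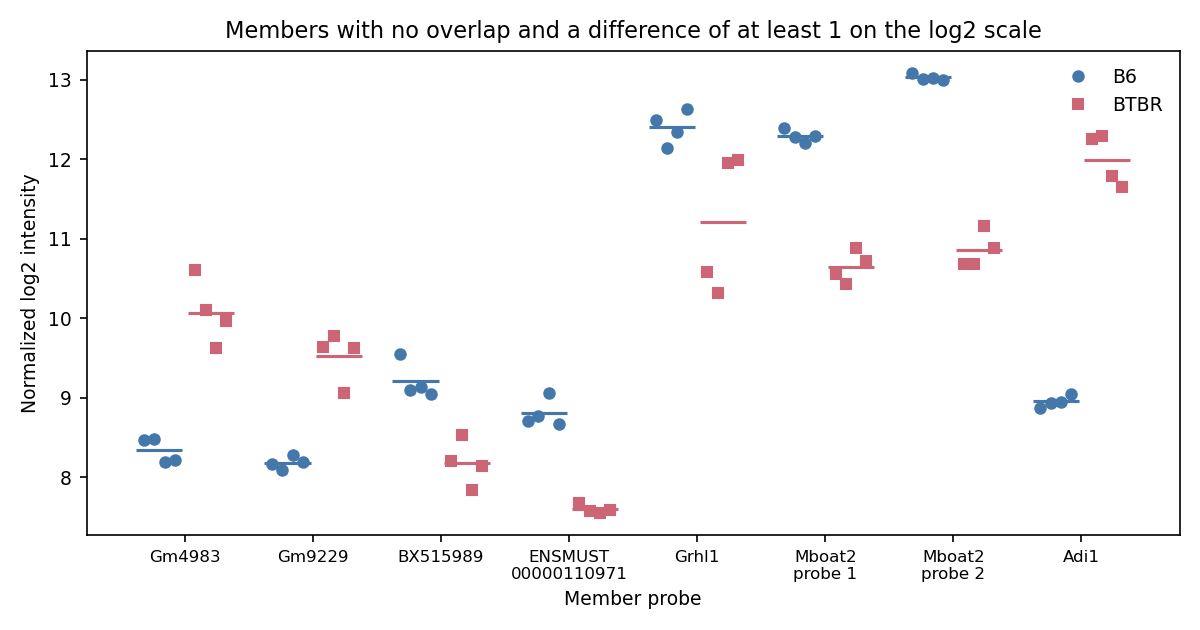
Normalized log2 intensity (vertical axis) in each of the 4 B6 arrays (circles) and 4 BTBR arrays (squares) for the 8 members with no overlap between strains and a difference of at least 1 on the log2 scale (horizontal axis); bars are strain means. Adi1 lies near 9 in B6 and near 12 in BTBR, and the Grhl1 probe is the one whose BTBR arrays fall into 2 pairs.

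Adi1 encodes acireductone dioxygenase, which acts late in the salvage of methionine from the methylthioadenosine that polyamine synthesis releases. Its probe (NM_134052, chr12:29366375-29366434) read 8.87, 8.94, 8.95 and 9.05 in B6 mice 1 to 4 and 12.26, 12.29, 11.79 and 11.65 in BTBR mice 1 to 4. All BTBR arrays were above all B6 arrays, by more than 2 log2 units at the closest. The strain means were 8.95 ± 0.07 (SD, n = 4) and 11.998 ± 0.33 (SD, n = 4), an 8.26-fold higher level in BTBR. This is the widest difference in the block, at 3.05 on the log2 scale. It lay between 2.95 and 3.16 when each array in turn was left out, but it was 2.75 in the deposited matrix and 3.78 with the scanner's processed signal, so its fold depends on the processing.

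Odc1 encodes ornithine decarboxylase, the rate-limiting enzyme of polyamine synthesis, and is the other member of this role. Its bright probe read 15.25 ± 0.04 in B6 and 15.00 ± 0.11 in BTBR (SD, n = 4), and its dimmer probe 10.07 ± 0.07 and 9.66 ± 0.12. Both differences were negative, at -0.25 and -0.41, and the strains did not overlap for either. Only the dimmer probe was called.

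The other genes of methionine salvage and polyamine metabolism lie outside the block, so their strain difference could be tested. Of 17 such genes measured, 2 rose and 1 fell at an adjusted p under 0.05 in limma over all probes, where 4.28% of 18399 gene names had a probe called higher and 5.77% a probe called lower. Mri1, the isomerase that acts early in methionine salvage, fell. One of its probes (chr8:86775559-86777769) went from 12.31 ± 0.10 to 11.52 ± 0.15 (SD, n = 4), a difference of -0.79 ± 0.09 (SE, adjusted p = 0.00065), and another fell by 0.85 on the log2 scale (adjusted p = 0.002). Across the alternative analyses the adjusted p of these probes stayed between 0.00026 and 0.022. The third Mri1 probe, at low intensity, had -0.32 (adjusted p = 0.12). All 4 BTBR arrays were below all 4 B6 arrays for the 2 probes that passed.

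Mat2b, the regulatory subunit of methionine adenosyltransferase, rose by 0.47 ± 0.08 on the log2 scale (SE, adjusted p = 0.0062) at the probe on chr11:40498282-40498733. Its other, brighter probe had -0.16 (adjusted p = 0.37). Amd2, an S-adenosylmethionine decarboxylase, rose by 0.40 ± 0.08 (SE, adjusted p = 0.014). That call was lost with the processed signal scaled to its 75th percentile, with median centring and without B6 mouse 2, where the adjusted p over all alternatives ran from 0.01 to 0.076. Amd2 is a near-identical copy of Amd1, whose brighter probe had 0.19 (adjusted p = 0.29), so the assignment of this signal is uncertain. The enzymes between Mri1 and Adi1 in the salvage order, Apip and Enoph1, did not pass, with 0.17 for Apip and -0.06 and -0.09 for the Enoph1 probes. The median over the 17 genes was 0.08, beside 0.01 over all genes.

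Mboat2 encodes a membrane-bound acyltransferase that remodels lysophospholipids. Its first probe (chr12:25644123-25644182) read 12.40, 12.28, 12.21 and 12.29 in B6 mice 1 to 4 and 10.55, 10.43, 10.89 and 10.72 in BTBR. Its second probe, 283 bases downstream, read 13.09, 13.01, 13.03 and 12.99 in B6 and 10.69, 10.68, 11.16 and 10.89 in BTBR. For both probes every BTBR array lay more than 1 log2 unit below every B6 array. The levels were 3.13-fold and 4.52-fold higher in B6, and the third probe of the gene was well above background on no array.

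For 3 genes on which the description turns, the 250 bases before the annotated start are printed here, as the stretch where transcription factors would meet the gene. They are the RefSeq sequence of C57BL/6J, build GRCm38.p6, and not that of BTBR. Capitals mark 3 motifs read on both strands, the GC box GGGCGG, the CCAAT box CCAAT and the TATA box TATAAA, and no 2 matches overlap in these windows.
Mboat2 (chr12:24831349-24831598, plus strand): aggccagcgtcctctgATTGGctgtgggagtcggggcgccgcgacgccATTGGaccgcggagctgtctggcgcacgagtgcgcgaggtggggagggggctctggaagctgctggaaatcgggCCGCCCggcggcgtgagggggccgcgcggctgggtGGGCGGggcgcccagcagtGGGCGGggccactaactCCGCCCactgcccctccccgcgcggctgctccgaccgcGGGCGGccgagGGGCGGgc
Id2 (chr12:25096093-25096342, minus strand): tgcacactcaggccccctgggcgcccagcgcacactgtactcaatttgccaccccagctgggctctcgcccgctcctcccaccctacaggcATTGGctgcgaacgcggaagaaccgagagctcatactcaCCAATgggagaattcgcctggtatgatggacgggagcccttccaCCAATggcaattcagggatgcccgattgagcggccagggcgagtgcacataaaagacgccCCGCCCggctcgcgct
Sox11 (chr12:27342719-27342968, minus strand): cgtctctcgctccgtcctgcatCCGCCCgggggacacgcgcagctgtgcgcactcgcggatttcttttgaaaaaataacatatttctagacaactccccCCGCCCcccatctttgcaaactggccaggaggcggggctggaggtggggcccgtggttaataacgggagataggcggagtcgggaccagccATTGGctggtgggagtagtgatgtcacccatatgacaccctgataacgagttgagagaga
The Mboat2 window is 77.6% G or C and holds 6 GC boxes and 2 CCAAT boxes. The Id2 window holds 1 GC box and 3 CCAAT boxes, the Sox11 window holds 2 GC boxes and 1 CCAAT box, and none of the 3 holds the TATA letters. A window was found for 26 of the 46 gene names, and 14 of these held a GC box, 9 a CCAAT box and 1 a TATA box. Among 32851 windows of all promoters the shares were 32.7%, 33.8% and 12.4%. The median GC content was 62.8% in the 26 windows and 52.4% in all windows. Its part in the motif counts was not tested. A match is only a match of letters.

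Id2 encodes an inhibitor that binds basic helix-loop-helix factors and keeps them from DNA. Of its 3 probes, the one farthest upstream (chr12:25780183-25780530) read 14.36, 14.45, 14.17 and 13.92 in B6 mice 1 to 4 and 14.40, 14.15, 13.94 and 14.29 in BTBR, and the strains overlapped. A probe 103 bases downstream, by the lower coordinates of the probes, read 9.92, 9.64, 9.79 and 9.46 in B6 and 8.96, 9.14, 9.15 and 9.29 in BTBR. There the strains did not overlap, and the difference was -0.57. This dimmer probe was made to the record AK013239, and the others to NM_010496. The probe farthest downstream read 13.64, 14.08, 13.81 and 13.59 in B6 and 13.76, 13.80, 12.40 and 13.97 in BTBR. Its difference of -0.30 rested on BTBR mouse 3 and was 0.06 without it. The probes with bright signal thus gave no common strain difference, and the low value of BTBR mouse 3 was seen at 1 probe of the 3.

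Of 21 other Id and helix-loop-helix genes measured outside the block, none rose and 1 fell, beside 4.28% and 5.77% of all gene names, so the count is near the background. Id4, an Id family member of neural precursors, fell by 1.12 ± 0.25 on the log2 scale (SE, adjusted p = 0.024) at chr13:48358668-48358727. The BTBR arrays read 12.42, 12.64, 11.47 and 11.63, all below the B6 range of 13.05 to 13.25, and BTBR mice 3 and 4 were lowest. Only 3 of the 8 fits that left out an array kept this call, the loss coming without each B6 mouse and without BTBR mouse 4, and over all alternatives the adjusted p ran from 8.6e-05 to 0.072. A second Id4 probe had -1.04 (adjusted p = 0.25). Id1 and Id3 had differences of at most 0.15, and the median over the list was -0.14.

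Sox11 encodes a high mobility group factor of immature neurons. Its 4 member probes lie along 5902 bases on the minus strand. The probe farthest upstream (chr12:28025383-28025442) read 8.21, 8.45, 8.54 and 8.67 in B6 mice 1 to 4 and 8.90, 8.85, 8.77 and 8.99 in BTBR, so that all BTBR arrays were above B6. The probe 2526 bases downstream read 9.21, 9.17, 9.46 and 9.21 in B6 and 9.93, 9.76, 9.76 and 9.70 in BTBR, again without overlap. The probe 5320 bases downstream went the other way, with 8.53, 8.86, 8.82 and 8.94 in B6 and 8.31, 8.28, 8.23 and 8.34 in BTBR. The last, 5842 bases downstream, read 9.1, 9.17, 9.22 and 9.32 in B6 and 8.88, 8.88, 8.49 and 9.01 in BTBR. The differences from 5′ to 3′ were thus 0.41, 0.53, -0.50 and -0.39, and no array of one strain fell within the range of the other strain at any of the 4 probes. With processed signals they were 0.85, 0.74, -1.02 and -0.58, and in the deposited matrix 0.29, 0.44, -0.34 and -0.30. The call of the probe farthest upstream remained in 2 of the 8 fits that left out an array. The fifth probe was well above background on no array. In B6 all 4 probes averaged between 8.47 and 9.26, in the lower part of the range of the array.

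**Figure D3:**
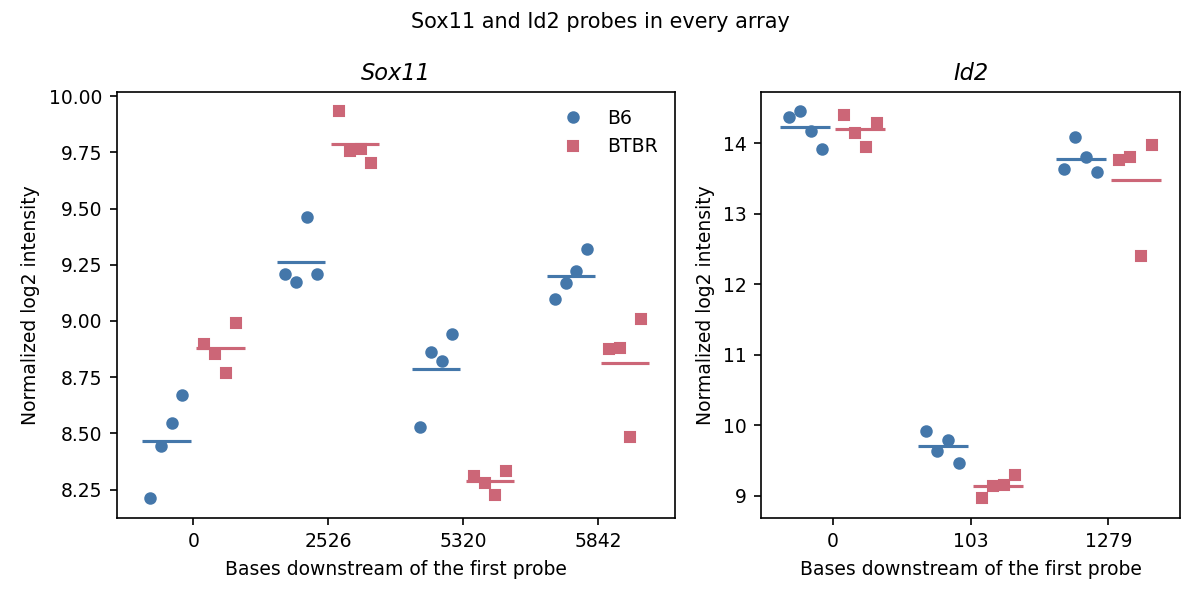
Normalized log2 intensity (vertical axis) in each B6 array (circles) and BTBR array (squares) at the 4 Sox11 probes and the 3 Id2 probes, in order of their distance in bases downstream of the first probe (horizontal axis); bars are strain means. At Sox11 the BTBR arrays are above B6 at the 2 upstream probes and below at the 2 downstream probes, and at Id2 the strains separate at the middle probe alone.

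None of 19 further Sox factors and immature neuron genes outside the block passed limma in either direction. No gene of that list reached an unadjusted p under 0.05, and none was called by the rank product. Sox4, the closest relative of Sox11, had 0.09 (adjusted p = 0.72), and Dcx, a microtubule protein of young neurons, had 0.09 (adjusted p = 0.85). The median over these genes was 0.09.

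Grhl1, a grainyhead-like factor best known in epithelia, gave the most uneven BTBR values. Its brighter probe (chr12:25301994-25302053) read 12.50, 12.14, 12.35 and 12.63 in B6 mice 1 to 4 and 10.58, 10.32, 11.95 and 11.998 in BTBR. BTBR mice 1 and 2 were more than 1 log2 unit below all other animals, and BTBR mice 3 and 4 lay just under B6. The strain difference was -1.87 on the slide that held mice 1 and 2 of each strain and -0.51 on the other slide. The difference between the slides did not pass limma's interaction test over all probes (adjusted p = 0.40, unadjusted p = 0.0005). A probe 88 bases downstream read 9.37, 9.52, 9.29 and 9.68 in B6 and 8.30, 8.24, 8.48 and 9.21 in BTBR, again without overlap.

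ENSMUST00000073088, a member upstream of Grhl1 with Taf1b between them, chosen for mention after its values were seen, read 10.10 and 10.24 in BTBR mice 1 and 2, below the B6 range of 10.69 to 11.20, and 11.42 and 11.16 in BTBR mice 3 and 4. As for the marker lists above, the same 2 animals stood apart, and they were the lowest of all 8 for 4 of the 7 hippocampal markers, C1ql2, Fibcd1, Neurod6 and Spink8. Fibcd1, a marker of CA1, read 9.18 and 8.87 in BTBR mice 1 and 2 against 11.56 and 11.24 in mice 3 and 4 and 10.63 to 11.78 in B6. Spink8, also of CA1, read 9.50 and 10.79 against 13.14 and 12.51. Wfs1 read 14.48 and 14.94 in BTBR mice 1 and 2 and 15.67 and 15.07 in mice 3 and 4, so mice 1 and 2 were again the lower BTBR animals, but neither lay below the B6 range of 14.20 to 14.52. The part of these marker levels in the Grhl1 values was not tested. With BTBR mice 1 and 2 left out, an analysis added after the data were seen, the brighter Grhl1 probe had a difference of -0.43, and the other -0.62.

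**Figure D4:**
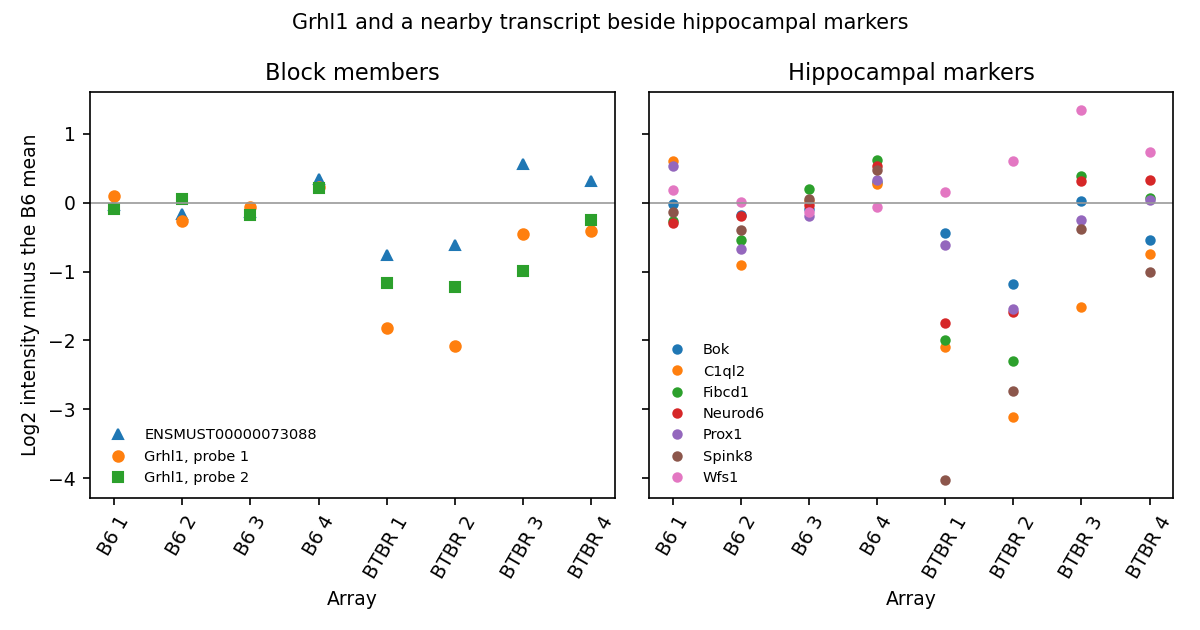
Log2 intensity of each array minus the mean of the 4 B6 arrays (vertical axis) for each of the 8 arrays (horizontal axis), for the Grhl1 probes and ENSMUST00000073088 (left) and the 7 hippocampal markers (right). BTBR mice 1 and 2 lie lowest for the brighter Grhl1 probe, and for 4 of the 7 markers. For Wfs1 they are the lower BTBR animals but do not lie below all B6 arrays.

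The remaining transcription factors differed little. Klf11, a Krüppel-like factor, had -0.16 and -0.02 at its probes, and Taf1b, a subunit of the RNA polymerase I machinery, had -0.07. For these 3 probes the strains overlapped.

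The 4 other members with the widest differences lie among predicted genes in the first stretch. Gm4983 read 8.47, 8.48, 8.19 and 8.21 in B6 mice 1 to 4 and 10.61, 10.10, 9.62 and 9.96 in BTBR, a 3.33-fold higher level without overlap. Gm9229 read 8.17, 8.09, 8.28 and 8.20 in B6 and 9.63, 9.78, 9.05 and 9.63 in BTBR, or 2.53-fold higher. These folds also depend on the processing, since the log2 difference was 1.37 in the deposited matrix and 2.86 with processed signals for Gm4983, and 0.99 and 2.53 for Gm9229. BX515989 was lower in BTBR, with 9.55, 9.1, 9.13 and 9.05 in B6 and 8.21, 8.53, 7.84 and 8.14 in BTBR, and again no array of one strain reached the other. Its difference of -1.03 was -0.73 in the deposited matrix and -2.21 with processed signals.

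ENSMUST00000110971 read 8.70, 8.77, 9.06 and 8.67 in B6 and 7.67, 7.58, 7.55 and 7.58 in BTBR. It was not well above background on any BTBR array, so its level was at least 2.13-fold higher in B6 (measured means 8.80 and 7.60). The measured difference was -0.72 in the deposited matrix, which is under that bound, and -4.53 with processed signals. Many of the neighbours are predicted genes. Among 63 protein-coding RefSeq genes from Odc1 to Eipr1, 32 carry only Gm or LOC symbols and 1 of those has a member, while 28 of the 31 others have one. The RefSeq list also holds 53 pseudogenes between them. The probe of LOC101055890 (difference -0.45) shared runs of 20 bases with 14 other probes of the array, among them those of zinc finger genes on other chromosomes, and that of Gm9241 (difference -0.08) with 6, so these values may not belong to 1 gene. No other member shared such a run with a probe outside the block.

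Enzymes of nucleotide supply were mixed. Cmpk2, a mitochondrial nucleotide kinase, was lower in BTBR at both probes, with 8.52 ± 0.08 against 7.97 ± 0.08 and 10.73 ± 0.13 against 10.41 ± 0.08 (SD, n = 4), and the strains did not overlap at either. At the dimmer probe the difference of -0.55 was -0.34 in the deposited matrix and -1.47 with processed signals. Rrm2, the small subunit of ribonucleotide reductase in dividing cells, was well above background on all 4 BTBR arrays and on no B6 array. It was at least 1.18-fold higher in BTBR (measured means 7.81 in B6 and 8.11 in BTBR), at the lower end of the signal. The measured difference of 0.30 was 0.16 in the deposited matrix, which is under that bound, and 1.41 with processed signals, and its call remained in 1 of the 8 fits that left out an array. Rnaseh1, which removes RNA from hybrids with DNA, had 0.15 with overlap. Of 13 further genes of deoxyribonucleotide supply outside the block, 1 rose and 1 fell in limma, beside 4.28% and 5.77% of all gene names, which is close to the background for so short a list. Tyms, thymidylate synthase, fell by 0.66 ± 0.10 on the log2 scale (SE, adjusted p = 0.0025) at chr5:30387605-30387664 and by 0.57 at a second probe (adjusted p = 0.0065), while the third, a dim probe, had 0.04. Samhd1, which breaks down deoxyribonucleotides, rose by 0.27 ± 0.05 (SE, adjusted p = 0.014), a call lost without B6 mouse 2 (adjusted p = 0.052), with a replicate block (adjusted p = 0.07) and without BTBR mice 1 and 2 (adjusted p = 0.088), over a range of 0.0048 to 0.088 in all alternatives. Rrm1, the partner subunit of Rrm2, had 0.33 (adjusted p = 0.077).

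Cmpk2 and its neighbour Rsad2, which encodes the antiviral enzyme viperin, are both induced by interferon. At the probes that detected them their values differed. Rsad2 read 8.80, 8.73, 8.75 and 8.59 in B6 mice 1 to 4 and 8.61, 8.77, 9.77 and 8.83 in BTBR, where mouse 3 alone was high, the animal with the highest blood markers. The part of these markers in its value was not tested. Its difference of 0.28 was 0.02 without that mouse, which at Cmpk2 had the lowest value of all arrays at both probes, 7.87 and 10.33.

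Among regulators of adhesion and membrane signalling, Adam17, the protease that sheds tumour necrosis factor and other surface proteins, was higher in BTBR at both probes, by 0.38 and 0.46, without overlap. Itgb1bp1, a partner of the beta1 integrin tail, read 12.45, 12.58, 12.49 and 12.64 in B6 and 13.33, 14.05, 13.38 and 13.21 in BTBR at its bright probe. There it was 1.93-fold higher in BTBR without overlap, and BTBR mouse 2 stood highest. Its second probe, 2064 bases downstream, had -0.33. That probe shares 52 bases of the genome with an Asap2 probe on the opposite strand, which had 0.03. Cpsf3, a nuclease of the pre-mRNA cleavage complex whose start lies 13 bases from that of Itgb1bp1 on the other strand, had 0.07 to 0.12 at its 3 probes. The gene pair thus shared a start region, and the wide strain difference of Itgb1bp1 was seen at its bright probe only. The median over the Itgb1bp1 probes was 0.31 and was not called.

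The other genes of this role overlapped between strains at every probe. Asap2, a GTPase-activating protein for Arf, had 0.02 and 0.03. Hpcal1, a neuronal calcium sensor, had -0.13 and 0.06, and its brighter probe spread from 12.95 to 13.96 in BTBR against 13.40 to 13.48 in B6. Kidins220, a scaffold of neurotrophin receptors, had -0.13 and -0.15, Rnf144a, a ubiquitin ligase, had 0.27, and Ywhaq, a 14-3-3 protein, had between -0.11 and 0.11.

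For membrane traffic, Trappc12, a subunit of the TRAPP tethering complex, was measured at 4 probes. The 3 probes at the downstream end were higher in BTBR by 0.33, 0.30 and 0.44 on the log2 scale. With an array left out in turn, the first 2 of these were called in 3 of 8 fits each and the last in all 8. The fourth, 26981 bases upstream of the nearest of them, was well above background on 3 B6 arrays and on no BTBR array, and was at least 1.33-fold higher in B6 (measured means 8.17 and 7.66). In the deposited matrix its measured log2 difference was -0.27, which is under that bound, and with processed signals it was -2.85. The upstream probe was made to another record (AK086217) than the 3 downstream probes (NM_178811). The upstream and downstream probes thus differed in sign, in the reverse order to Sox11, whose upstream probes were the higher ones in BTBR. Tssc1, now named Eipr1, which acts in endosome traffic, had -0.06 and -0.18.

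Of the lipid and small molecule enzymes other than Mboat2, Allc, related to allantoicase, was 1.59-fold higher in BTBR at low intensity (7.85 ± 0.13 in B6 and 8.52 ± 0.25 in BTBR, SD, n = 4), and its log2 difference was 0.40 in the deposited matrix and 2.11 with processed signals. Iah1, an esterase, had -0.04 and 0.42 at its probes, and the strains were apart only at the latter. Colec11, a secreted collectin of innate immunity, was 1.63-fold higher in B6 (9.68 ± 0.10 and 8.98 ± 0.15, SD, n = 4) without overlap. Cys1, a protein of the cilium, had -0.34 with overlap. Rps7, a protein of the small ribosomal subunit and the brightest member, was 16.96 ± 0.04 in B6 and 16.94 ± 0.10 in BTBR (SD, n = 4). The 15 remaining gene names, of which 10 have no symbol in the RefSeq list, had 1 probe each with differences from -0.45 to 0.65. Of these, 1 was called higher and 3 lower, beside 3.31% and 4.3% of all probes.

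Since single probes carry much of the description, the genes with several member probes were compared. Of 17 such genes, 3 (Adam17, Mboat2 and Cmpk2) had every probe called in the same direction, 5 had some called, 2 (Sox11 and Trappc12) had calls in opposite directions, and 7 had none. With an array left out in turn, the brighter Cmpk2 probe kept its call in 1 of 8 fits and the probes of Adam17 and Mboat2 in all 8. Probes of 6 of the 17 differed in sign. Some genes, among them Trappc12, Itgb1bp1, Iah1 and Id2, had probes made to different records. Over all gene names, 4.28% had a probe called higher and 5.77% a probe called lower. The same counts over all genes with several probes are not given, so nothing is read from these. With the median over the probes of each gene in place of single probes, 17 of 46 gene names were called, 8 higher and 9 lower, beside 7.77% of all gene names, and neither Sox11, Id2 nor Grhl1 was among them.

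The arrays were run on 2 slides, each with 2 mice of both strains, so the strain difference could be measured on each slide. Whether it differed between slides is a question that the choice of the block did not use. No member had an adjusted p under 0.05 for such a difference in limma, beside 0% of all probes. At an unadjusted p under 0.05 there were 11 members, or 15.7%, beside 9.93% of all probes. For slide 2 against slide 1 no member was called either, beside 0% of all probes, and at an unadjusted p under 0.05 there were 11 members (15.7%) beside 14.2% of all probes. Adi1 had 3.37 on slide 1 and 2.72 on slide 2 (interaction adjusted p = 0.40), and the second Mboat2 probe had -2.37 and -1.99 (adjusted p = 0.50).

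**Figure D5:**
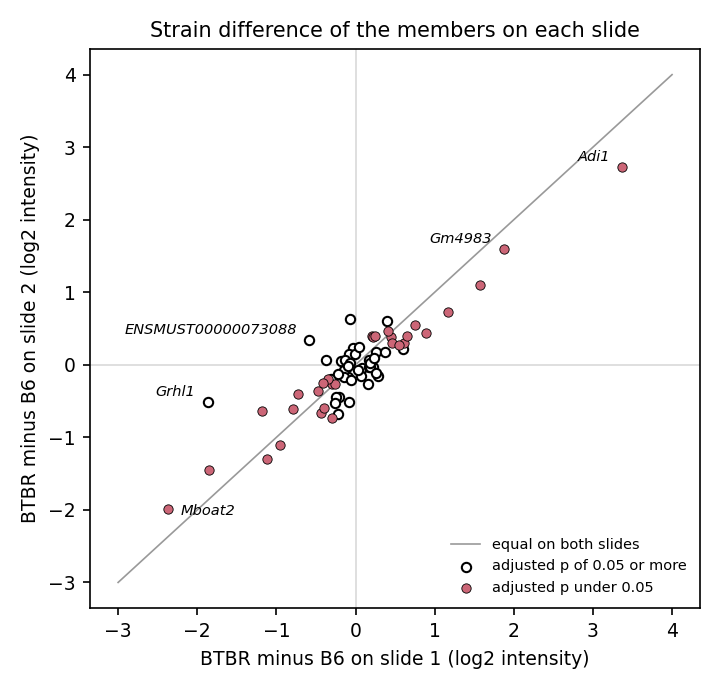
BTBR minus B6 (log2 intensity) on slide 2 (vertical axis) against the same on slide 1 (horizontal axis) for the 70 members, with the line of equal values; filled points had an adjusted p under 0.05 with all arrays. The brighter Grhl1 probe, at -1.87 and -0.51, lies far from the line.

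The plot of the slides sets these values side by side for all members. When each array in turn was left out, 18 of the 30 member calls remained in all 8 fits, among them those of Adi1, Mboat2 at both probes, Adam17 at both probes, Gm4983, Gm9229, Colec11 and Allc, the bright probe of Itgb1bp1 and 2 probes of Sox11. The call of the dimmer Grhl1 probe remained in 1 of the 8 fits. The share of all called probes that remained in all 8 fits is not given. These fits reuse the contrast that chose the block, so the counts are a description.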

How the data were processed

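Per the file headers, the authors hybridised 1-colour Agilent 4x44K arrays and extracted each spot's intensity with Feature Extraction 10.7.3.1 on build mm9 (the submitters' processing notes name version 9.1). The deposited values used are the mean signal intensity, the median local background intensity and the detection flags. The deposited series matrix, on the log2 scale, which the authors made with Agi4x44PreProcess and quantile normalization (signal column and offset not stated), was an alternative. The local background was subtracted, values were floored at 0.5, raised by 50, put on the log2 scale and quantile normalized together for all 8 arrays. Repeated spots were replaced by their median. Of 41174 probes, 27982 were kept: well above background on 3 of 4 arrays of a strain, and not outlier-flagged (154 were). Strains were compared with limma 3.58.1 (R 4.3.3) and Benjamini-Hochberg adjustment over all kept probes, at 0.05. The fit was tested on simulated data. Bounds ("at least") compare the bright strain with the dimmest signal called well above background on each array of the other. Summed marker levels add the intensities of the brightest probe of each gene; 1 hippocampal marker is not reported here. Coordinates are those of the files; no annotation of that build was used here, so exons and UTRs are not given. Gene names were matched to RefSeq GRCm38.p6 for 33 of 46 names.

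Named genes are Adi1, Sox11 and Id2, block genes on lists of known roles, and members without overlap that differed by at least 1 on the log2 scale, then the nearest probes outside the borders and pathway genes that passed the test or stand beside a member. Members and lists were chosen with earlier results of these data known. Arrays give no read depth, and precision rests on their number. One mouse was hybridised per array, so p-values measure the spread between animals.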

Additional observations from a re-analysis of the deposited data

Results flagged for a closer look

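Within each strain, every member was checked for 1 array far from the other 3, by the gap to the nearest array as a share of the range of the 4. Of 140 groups of 4 arrays, 6 exceeded Dixon's tabulated limit, and chance flags about 1 in 20 groups. In BTBR mouse 2, Asap2 at its upstream probe read 10.78 against 11.44 to 11.47 in the others (share 0.965), and Itgb1bp1 at its dimmer probe read 9.19 against 8.75 to 8.82 (0.844). In BTBR mouse 3, the transcript NAP029440-1 read 9.11 against 9.53 to 9.58 (0.895), and Id2 at its downstream probe read 12.40 against 13.76 to 13.97 (0.868). In B6, Sox11 at the probe 2526 bases downstream read 9.46 in mouse 3 against 9.17 to 9.21 (0.875), and Tssc1 at its dimmer probe read 8.82 in mouse 1 against 8.57 to 8.60 (0.859).

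Among the probes of the interval that are not members, 2 were well above background on 2 arrays of 1 strain and on none of the other. Nol10 was well above background on 2 B6 arrays and no BTBR array, with means of 7.92 and 7.79, and 1700022F17Rik on 2 BTBR arrays and no B6 array, with means of 7.73 in B6 and 7.96 in BTBR.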

How the results depend on the processing

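The count of 30 members called (15 higher and 15 lower in BTBR) moved by over 1.5 times with a replicate block (18, as 9 and 9, beside 5.9% of all probes), at an adjusted p under 0.01 (12, as 6 and 6, beside 4.27%), with the rank product (13, as 6 and 7, beside 3.94%), and with BTBR mice 1 and 2 left out, chosen after seeing the data (16, as 8 and 8, of which 14 were shared, beside 5.54%). With each gene's probes replaced by their median, 17 of 46 gene names were called (8 higher and 9 lower, beside 7.77% of all gene names), where 22 had a called probe before. Same-numbered mice correlated at -0.14, 0.51, -0.10 and 0.39 in their deviations. B6 mice 1 and 3 each correlated better with another number, and B6 mice 2 and 4 best with their own. Same-numbered mice also shared a slide, so these values do not settle whether the replicate numbers pair the animals. Leaving out each array gave 19 to 28 members called, 10 to 15 higher and 9 to 13 lower, beside 5.48% to 7.8% of all probes. The lowest count came without B6 mouse 3 (19, as 10 and 9, beside 5.48%), and it too moved by over 1.5 times. The other settings gave 22 to 32 calls, beside 4.88% to 8.33%. Of 55 named member probes, none of the 26 called turned sign under any setting. Of 1091 alternative values, 78 moved by more than the spread between replicates. No member was called for slide or its interaction with strain under any of the alternatives run. The call of Id4 was lost when its probes were replaced by their median. Settings that left out a dim probe gave no value for it. Signals near background limit the dim members, whose differences widened with processed signals (Trappc12, upstream probe, -0.51 to -2.85).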
